A study of Mus musculus with 8 samples.

Results

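The genes described here were 10 regulators and receptors of the erythroid and megakaryocyte lineages: the transcriptional regulators Gata1, Gata2, Klf1, Tal1, Zfpm1, Nfe2, Gfi1b and Lmo2, and the receptors Epor and Tfrc. They were taken by symbol from a table of 54838 mouse genes, and all 10 were in it and passed the filter on low counts, among 10911 genes tested. RNA was measured in acute myeloid leukemia (AML) cells of genotype RUNX1-RUNX1T1 on a C57BL/6 background, in 4 samples labeled Vehicle and 4 labeled AG636. RUNX1-RUNX1T1 is a fusion of a core-binding factor with a corepressor, and AG636 inhibits DHODH, an enzyme of de novo pyrimidine synthesis. Both groups were leukemias that had been transplanted into Ptprca recipients described by the labels as sub-lethally irradiated, whereas the methods of the study list irradiation for other models only. AG636 was dosed orally b.i.d. at 100 mg/kg, for 1 day per the figure legend, and AML cells were sorted from bone marrow and spleen as cKit-high CD11b-low. Which tissue a sample came from, the ages of the mice and the number of primary leukemias behind the samples were not stated, and the legend gives fewer mice per group than the 4 samples used here. Whether samples share a mouse was not stated, and the p-values measure the spread between these samples.

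Erythroid cells are specified by a small group of nuclear proteins that act on shared regulatory elements. Gata2 is active in stem, progenitor and mast cells and gives way to Gata1 as erythroid cells mature, a replacement known as the GATA switch. Gata1 binds DNA with its cofactor Zfpm1 (FOG-1) and in a complex in which Lmo2 bridges it to the bHLH factor Tal1, while Klf1 switches on globin and red cell membrane genes, Nfe2 serves globin genes and platelet formation, and Gfi1b represses genes of other fates. Epor carries the signal of erythropoietin, and Tfrc, the transferrin receptor, takes up the iron that heme needs.

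Libraries held 6120030 to 7162036 counts, from a QuantSeq kit that reads the 3′ ends of transcripts, so that a count stands for a transcript end and is not scaled to gene length. The drug target Dhodh was measured at 33.0 ± 4.002 CPM (the count of a gene scaled to a common library size, with TMM factors) in Vehicle and 29.8 ± 2.39 CPM in AG636 (SD, n = 4). Of the genes behind the sort markers, Kit was at 1022 to 1580 counts and Itgam, which encodes CD11b, was at 0 to 4 counts. Several genes of myeloid progenitors were low, with Cebpa at 0 to 1 count, Flt3 at 1 to 5, Elane at 2 to 30 and Mpo at 3 to 33 counts, whereas Spi1 was at 171 to 349 counts, Fcgr3 at 82 to 610 and S100a8, a gene of neutrophils, at 37 to 526. Car1, a carbonic anhydrase of erythroid progenitors, was at 15955 to 25961 counts. Genes of mast cells and basophils were uneven, with Ms4a2, a subunit of the IgE receptor, at 3385 to 6729 counts, Fcer1a, another of its subunits, at 10 to 112 and the protease gene Mcpt8 at 1 to 38, and 4 of the 11 did not pass the filter. Vehicle sample 4 stood apart from the other Vehicle samples for Klf1, Epor and Tfrc, by its gap to the nearest sample relative to the range. No AG636 sample stood apart from its group in this way for any of the 10 genes. The AG636 samples were widely spread for most of these genes, and AG636 samples 2 and 3 often lay at the ends of that spread. Where leaving out Vehicle sample 4, AG636 sample 2 or AG636 sample 3 moved a value much, the value without that sample is given.

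All 10 genes were expressed in every sample, between 266 and 2965 counts or 42.4 and 461 CPM, so that counting error alone gives a coefficient of variation of 1.84 to 6.13%. In Vehicle the levels fell into steps. Gata2 (370 ± 46.9 CPM), Tal1 (348 ± 24.5) and Lmo2 (344 ± 13.4 CPM, SD, n = 4) were highest, with ranges that overlapped each other. Gata1 (225 ± 7.98 CPM), Klf1 (171 ± 7.76) and Zfpm1 (152 ± 16.9) followed, each apart from its neighbor among these 6 genes in all Vehicle samples. The receptor Tfrc (106 ± 20.7 CPM) overlapped Zfpm1, and Gfi1b (95.3 ± 13.1), Nfe2 (85.8 ± 17.2) and Epor (78.6 ± 11.1) completed the order with overlapping ranges. Among all tested genes these Vehicle levels lay between the 75.5th percentile (Epor) and the 96.6th percentile (Gata2).

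**Figure D1:**
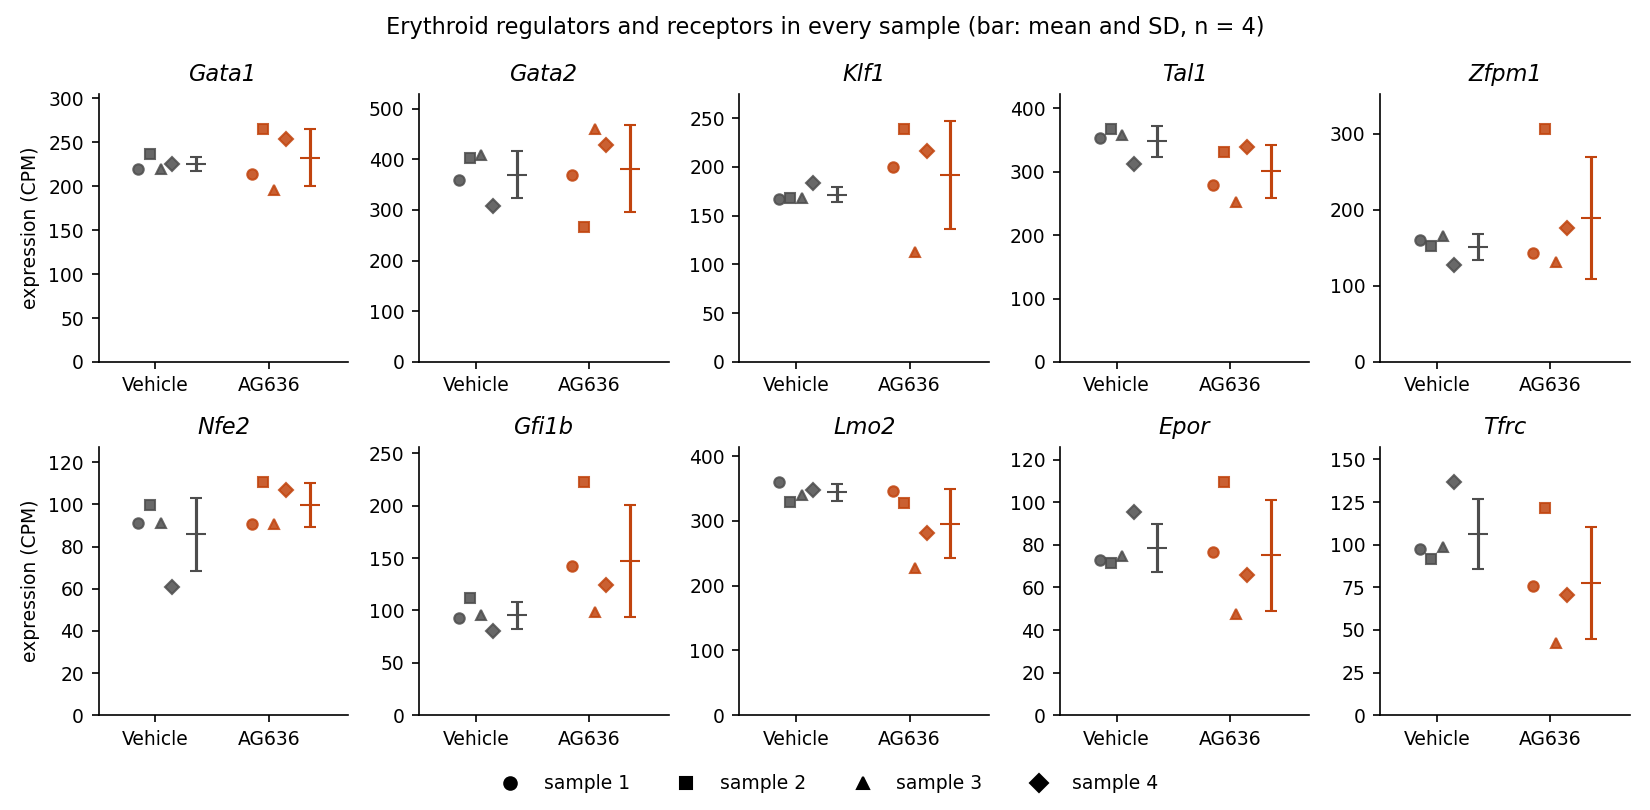
Expression in CPM (y axis from 0) of each of the 10 genes in the 4 Vehicle and 4 AG636 samples, where symbol shape gives the sample number and the bar the mean and SD of the group. The groups overlapped for all 10 genes, and AG636 samples 2 (squares) and 3 (triangles) often lay at opposite ends of the treated group.

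In the GRCm38 coordinates of the table, Gata1 lies on chromosome X (7959260 to 7978071, − strand), Gata2 on chromosome 6 (88193891 to 88207032, + strand), Klf1 on chromosome 8 (84901928 to 84905291, + strand) and Tal1 on chromosome 4 (115056426 to 115071755, + strand). Zfpm1 lies on chromosome 8 (122282141 to 122337251, + strand), Nfe2 on chromosome 15 (103248212 to 103258403, − strand), Gfi1b on chromosome 2 (28609450 to 28621982, − strand) and Lmo2 on chromosome 2 (103957986 to 103981878, + strand). Epor lies on chromosome 9 (21958897 to 21963506, − strand) and Tfrc on chromosome 16 (32608920 to 32632794, + strand). No exon of another annotated gene overlapped theirs in GENCODE M21.

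Because GATA factors are known to act on each other's genes, the promoters of the members were searched for the GATA words AGATAA or AGATAG and TGATAA or TGATAG, on both strands. RefSeq promoter windows (GRCm38.p6, 250 bases before to 50 after a start) were found for 8 members, in 11 windows. A GATA word was in 4 of the 11 windows, those of Klf1, Tal1, Gfi1b and Epor, against 29.8% of 32851 windows of all genes. The box CCNCNCCC, a form of the CACCC sequence that Klf-type factors bind, was in 9 of the 11 windows against 49.5% of all windows, and the E-box CAGNTG in 5 against 51.4%. The 4 windows with a GATA word are printed because they hold the recognition sequence of members within members, 5′ to 3′ on the strand of the gene, with the GATA word in capitals. The word begins 80 bases before the start of Klf1 (chr8:84901732-84902031, + strand), 205 bases before that of Tal1 (chr4:115056176-115056475, + strand), 120 before that of Gfi1b (chr2:28621933-28622232, − strand) and 54 before that of Epor (chr9:21963527-21963826, − strand).
Klf1: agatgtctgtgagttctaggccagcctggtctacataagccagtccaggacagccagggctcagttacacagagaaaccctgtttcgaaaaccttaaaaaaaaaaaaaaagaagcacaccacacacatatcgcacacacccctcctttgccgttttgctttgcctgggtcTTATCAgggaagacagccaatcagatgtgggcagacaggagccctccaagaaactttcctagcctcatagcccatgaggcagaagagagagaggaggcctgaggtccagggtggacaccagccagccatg
Tal1: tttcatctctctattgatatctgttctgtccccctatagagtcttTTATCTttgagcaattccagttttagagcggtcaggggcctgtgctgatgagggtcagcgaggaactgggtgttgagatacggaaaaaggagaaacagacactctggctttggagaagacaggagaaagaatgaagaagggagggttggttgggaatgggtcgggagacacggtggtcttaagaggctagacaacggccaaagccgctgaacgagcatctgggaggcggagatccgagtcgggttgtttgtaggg
Gfi1b: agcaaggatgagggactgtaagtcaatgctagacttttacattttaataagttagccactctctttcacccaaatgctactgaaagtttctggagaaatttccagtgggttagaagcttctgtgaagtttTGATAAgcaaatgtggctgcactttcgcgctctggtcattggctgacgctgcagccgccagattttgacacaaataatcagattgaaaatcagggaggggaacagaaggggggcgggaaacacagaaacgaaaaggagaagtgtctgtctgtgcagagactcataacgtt
Epor: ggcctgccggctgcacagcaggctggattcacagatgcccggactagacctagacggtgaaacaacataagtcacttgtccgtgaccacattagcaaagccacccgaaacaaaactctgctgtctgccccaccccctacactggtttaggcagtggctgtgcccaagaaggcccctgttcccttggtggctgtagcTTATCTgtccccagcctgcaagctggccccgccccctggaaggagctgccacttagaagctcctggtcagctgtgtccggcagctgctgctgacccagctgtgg
A word in these windows is a match of letters, and binding was not measured here.

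To determine whether inhibition of DHODH altered this regulatory group, AG636 was compared with Vehicle across all genes by limma-voom. None of the 10 genes was called at an adjusted p-value under 0.05, 0 higher against 5.47% of all tested genes and 0 lower against 8.49% (8.41% and 5.23% when scaled by library size alone), and 1 of the 10, Gfi1b, had an unadjusted p under 0.05 against 30.7% of all tested genes. The groups overlapped for all 10 genes, whereas they did not overlap in 22.2% of tested genes. Fold changes were above 0 for 6 genes and below 0 for 4, with a median of 0.03 log2 units against −0.01 for all tested genes. edgeR called 0 of the 10 (6.36% of all tested genes higher and 8.41% lower), and DESeq2 called 1 higher, Gfi1b, and 0 lower (8.75% and 9.25% of all tested genes).

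The GATA factors had nearly the same mean in both groups. Gata1, the central erythroid and megakaryocyte factor, was measured at 220.1, 237, 219 and 225 CPM in Vehicle samples 1 to 4 and at 214, 266, 196 and 253 CPM in AG636 samples 1 to 4. AG636 samples 2 and 4 lay above all Vehicle samples and AG636 samples 1 and 3 below them. The log2 change was 0.03 (SE 0.10, adjusted p by limma = 0.853), with a 95% interval of −0.19 to 0.26. Gata2 was measured at 360.1, 403, 409 and 308 CPM in Vehicle and at 369, 266, 461 and 429 CPM in AG636, a log2 change of 0.02 (SE 0.16, adjusted p by limma = 0.945, interval −0.34 to 0.38). For Gata2 the order of the treated samples was turned around, AG636 sample 2 being the lowest and AG636 sample 3 the highest of all 8.

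The partners of Gata1 in the Tal1 complex had slightly lower means in AG636. Tal1 was measured at 354, 368, 359 and 313 CPM in Vehicle and at 279, 332, 252 and 339.5 CPM in AG636, a log2 change of −0.22 (SE 0.11, adjusted p by limma = 0.195, interval −0.46 to 0.02). Lmo2, the adaptor between Tal1 and Gata1, was measured at 360.4, 329, 340.0 and 348 CPM in Vehicle and at 347, 328, 228 and 281 CPM in AG636, a log2 change of −0.24 (SE 0.12, adjusted p by limma = 0.216, interval −0.51 to 0.03). For both genes AG636 sample 3 was the lowest of all samples, and without it the log2 change was −0.14 for Tal1 (adjusted p by limma = 0.359) and −0.12 for Lmo2 (0.410), and −0.09 for Lmo2 without Vehicle sample 4 as well. Zfpm1, the cofactor of Gata1, was at 161, 152, 166 and 128 CPM in Vehicle and at 143, 307, 132 and 175 CPM in AG636, a log2 change of 0.24 (SE 0.22, adjusted p by limma = 0.504, interval −0.25 to 0.74). Its higher mean came from AG636 sample 2, and without that sample the value was −0.02 (adjusted p by limma = 0.943), against 0.39 without AG636 sample 3 (range of adjusted p over 22 alternatives 0.245 to 0.943).

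Klf1, the activator of globin and membrane genes, was nearly constant in Vehicle at 167, 168, 168 and 183 CPM and spread over 199.5, 239, 112 and 217 CPM in AG636. AG636 samples 1, 2 and 4 were above all Vehicle samples and AG636 sample 3 was below them. The log2 change was 0.11 (SE 0.20, adjusted p by limma = 0.750, interval −0.32 to 0.54). Without AG636 sample 3 Klf1 was called higher, at 0.34 (SE 0.09, adjusted p by limma = 0.0286), as were 6.96% of tested genes in that fit. AG636 sample 3 was singled out after its values were seen, so leaving out this lowest sample was bound to raise the value. Without AG636 sample 2 the value was −0.02 (range of adjusted p over 22 alternatives 0.0231 to 0.967).

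Gfi1b, which represses genes of other fates within the erythroid and megakaryocyte lineages, had the largest fold change of the 10 genes. It was measured at 93.2, 112, 95.5 and 80.2 CPM in Vehicle and at 142, 223, 98.9 and 125 CPM in AG636. AG636 samples 1, 2 and 4 were above all Vehicle samples, and AG636 sample 3 was within the Vehicle range. The log2 change was 0.57 (SE 0.21, adjusted p by limma = 0.0951), which corresponds to 1.48-fold with an interval of 1.08-fold to 2.05-fold. Gfi1b was called higher by DESeq2 (log2 change 0.65, adjusted p = 0.0220) and by limma without AG636 sample 3 (0.74, adjusted p = 0.0246), without AG636 samples 2 and 3 (0.49, adjusted p = 0.0458; 4.29% of tested genes higher in that fit) or without AG636 sample 3 and Vehicle sample 4 (0.68, adjusted p = 0.0427; 6.82%), and its fold change was above 0 under all 22 alternatives (adjusted p 0.0220 to 0.190). In the fit without AG636 sample 3 alone, 6.96% of tested genes were called higher. AG636 sample 3 was the lowest AG636 sample for Gfi1b and was singled out after its values were seen. Leaving it out alone was therefore bound to raise the fold change, and leaving out AG636 samples 2 and 3 removed both ends of the group. Without AG636 sample 2, its highest sample, the log2 change of Gfi1b was 0.35 and it was not called (adjusted p by limma = 0.139). Nfe2, the globin and platelet factor, was at 91.3, 99.9, 91.3 and 60.7 CPM in Vehicle and at 90.8, 111, 91.0 and 107 CPM in AG636, a log2 change of 0.24 (SE 0.15, adjusted p by limma = 0.307, interval −0.09 to 0.57). Vehicle sample 4 was the lowest of the 8 samples for Nfe2, and also for Gfi1b and Zfpm1. Without it the log2 change of Nfe2 was 0.10 (SE 0.11, adjusted p by limma = 0.599).

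The receptors had lower means in AG636 and a wide spread. Epor was measured at 73.0, 71.5, 74.9 and 95.2 CPM in Vehicle and at 76.8, 109.7, 47.7 and 65.9 CPM in AG636, a log2 change of −0.12 (SE 0.21, adjusted p by limma = 0.734, interval −0.58 to 0.34). Without Vehicle sample 4 the value of Epor was −0.01, without AG636 sample 2 it was −0.33 and without AG636 sample 3 it was 0.07. Tfrc was at 97.6, 91.6, 98.9 and 137 CPM in Vehicle and at 76.0, 121, 42.4 and 70.2 CPM in AG636. AG636 samples 1, 3 and 4 lay below all Vehicle samples, and AG636 sample 2 lay above 3 of them. The log2 change of Tfrc was −0.53 (SE 0.25, adjusted p by limma = 0.182), or 0.691-fold with an interval of 0.468-fold to 1.02-fold. Without AG636 sample 2 Tfrc was called lower, at −0.78 (SE 0.20, adjusted p by limma = 0.0360), as were 6.77% of tested genes in that fit. AG636 sample 2 was the highest AG636 sample for Tfrc, so leaving it out was bound to lower the value. Without AG636 sample 3 the value was −0.28, and over 22 alternatives the adjusted p ranged from 0.0360 to 0.657.

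**Figure D2:**
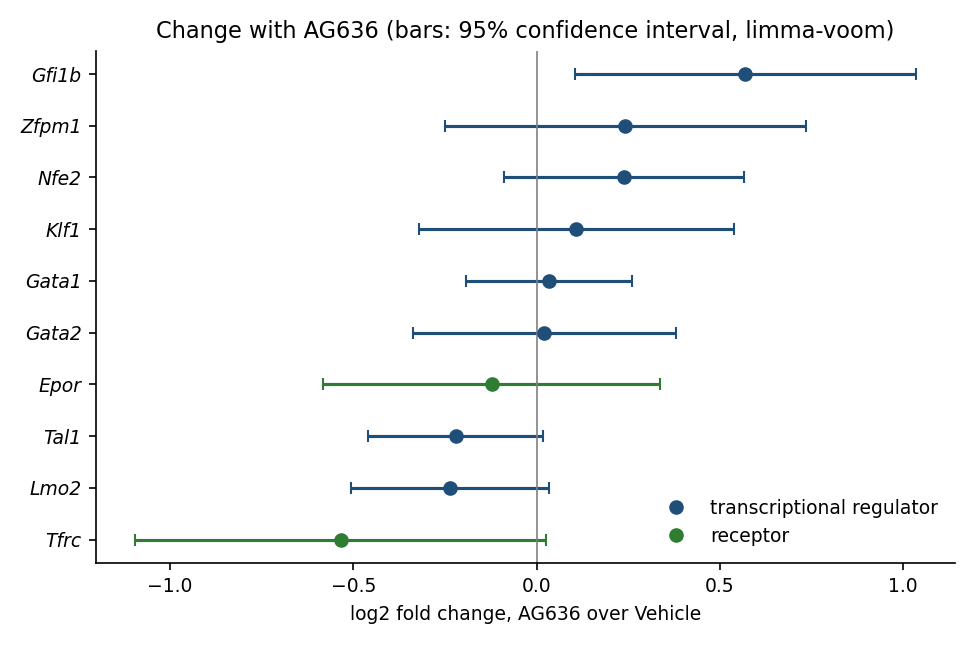
Log2 fold change of AG636 over Vehicle (x axis) for each of the 10 genes (y axis), with 95% confidence intervals from limma-voom, n = 4 samples per group. The interval of Gfi1b, 0.11 to 1.03, was the only interval of the 10 that did not include 0, and its adjusted p was 0.0951.

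The spread among samples was wider in AG636 for most of the 10 genes. The SD of log2 CPM was larger in AG636 than in Vehicle for 9 of the 10 genes, Nfe2 being the exception, with a median ratio of 2.54, against 70.7% of all tested genes and a median ratio of 1.46. For Klf1 the SD was 0.06 in Vehicle and 0.49 in AG636 on the log2 scale, and for Lmo2 0.06 and 0.27. These ratios describe 4 samples per group and were not tested. AG636 sample 2 was the highest AG636 sample for 7 of the 10 genes and AG636 sample 3 the lowest for 8. The matching shares over all tested genes were not taken. Of all pairs of replicates these samples also disagreed most beyond sampling noise (chi-square per degree of freedom 22.6). Between these samples, which were set side by side after their values had been seen, Tfrc differed 2.86-fold, Zfpm1 2.33-fold, Epor 2.30-fold, Gfi1b 2.25-fold and Klf1 2.13-fold, each higher in AG636 sample 2, while Gata2 was at 0.577 of its level in AG636 sample 3.

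Lists of lineage genes differed in their order between these samples. Of 24 tested erythroid effector genes (globins, heme, membrane and carbonic anhydrase genes), 23 were higher in AG636 sample 2 than in AG636 sample 3, with a median ratio of 1.96, against 49.9% of all tested genes. Aqp1, a water channel of red cells, differed 11.2-fold, Slc4a1, the anion exchanger band 3, 3.98-fold and Hemgn, a nuclear protein of erythroid progenitors, 3.72-fold. The exception was Hbb-bs, a beta-globin gene, at 0.550. Of 7 tested mast cell and basophil genes, 0 were higher in AG636 sample 2, with a median ratio of 0.363. Cma1, a mast cell chymase, was at 277 CPM in AG636 sample 3 and 39.6 CPM in AG636 sample 2, and Hdc, which makes histamine, at 1594 and 579 CPM. Of 8 tested megakaryocyte genes, 0 were higher in AG636 sample 2, with a median ratio of 0.586, among them Itga2b, an integrin of platelets, at 6.07 CPM against 35.9 CPM in AG636 sample 3. Of 7 tested mature myeloid genes, 7 were higher in AG636 sample 2, with a median ratio of 6.79. For the mature myeloid list, other AG636 samples lay further out. Its mean was lowest in AG636 sample 1 (−1.66 log2 units from the mean of all samples) and highest in AG636 sample 4 (1.64). In bulk samples, fewer cells of a type and less RNA per cell cannot be told apart.

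**Figure D3:**
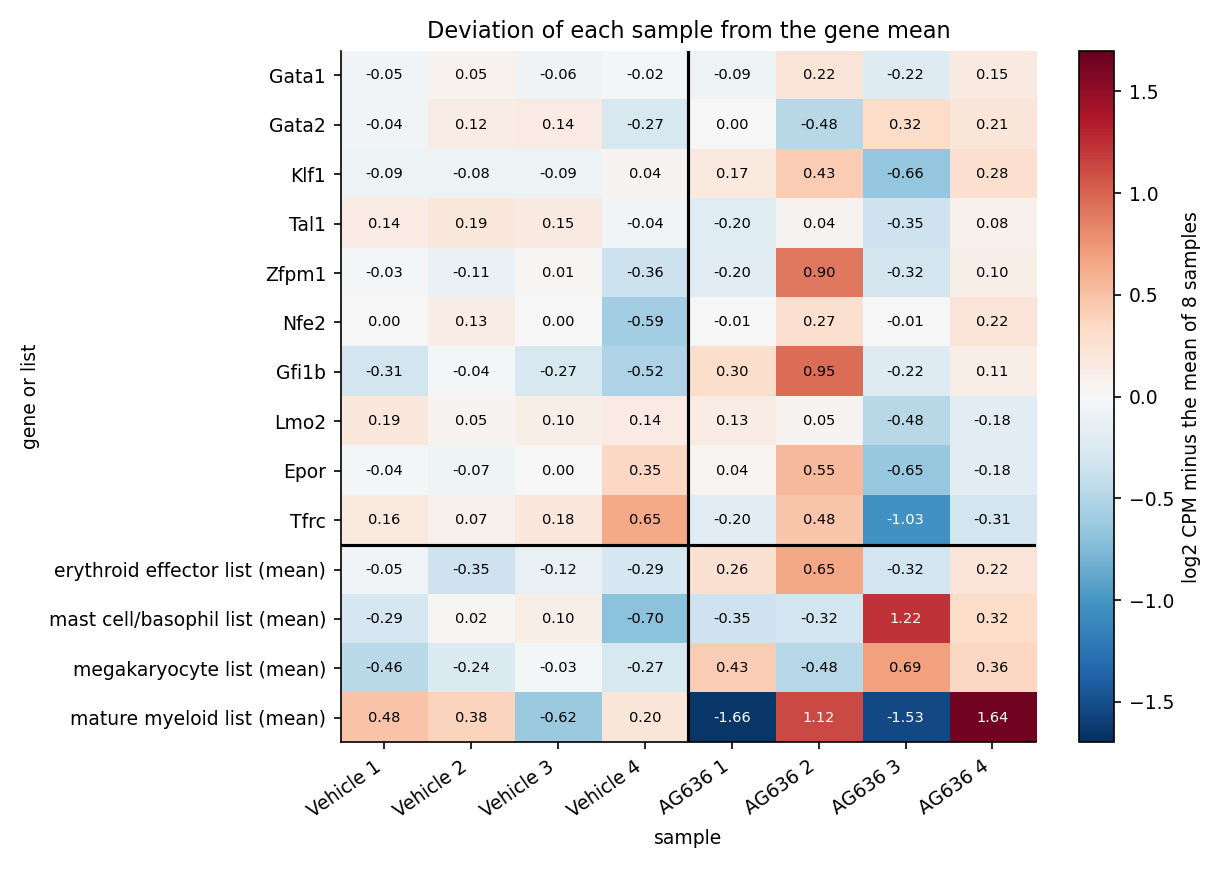
Log2 CPM minus the mean over 8 samples (color scale, blue low and red high, value printed in each cell) for the 10 genes and for the means of 24 erythroid effector, 7 mast cell and basophil, 8 megakaryocyte and 7 mature myeloid genes, with samples in columns. AG636 sample 3 was at −1.03 for Tfrc, 1.22 for the mast cell and basophil mean, 0.69 for the megakaryocyte mean and −1.53 for the mature myeloid mean, and AG636 sample 2 at 0.95 for Gfi1b, −0.48 for Gata2, −0.48 for the megakaryocyte mean and 1.12 for the mature myeloid mean. For the mature myeloid mean AG636 samples 1 (−1.66) and 4 (1.64) lay further out.

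Single samples decided the sign of several changes. Without AG636 sample 2 the log2 fold changes of Gata1, Klf1 and Zfpm1 moved to −0.03, −0.02 and −0.02, and without AG636 sample 3 that of Gata2 moved to −0.08 and that of Epor to 0.07. Tal1, Nfe2, Gfi1b, Lmo2 and Tfrc had the same sign under all 22 alternatives. Without AG636 sample 3, 2 of the 10 genes were called higher, Gfi1b and Klf1, against 6.96% of tested genes in that fit. Without AG636 sample 2, 1 was called lower, Tfrc, against 6.77%. AG636 sample 3 was the lowest AG636 sample for Gfi1b and Klf1, and AG636 sample 2 the highest for Tfrc. Leaving them out was therefore bound to move the values in these directions.

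**Figure D4:**
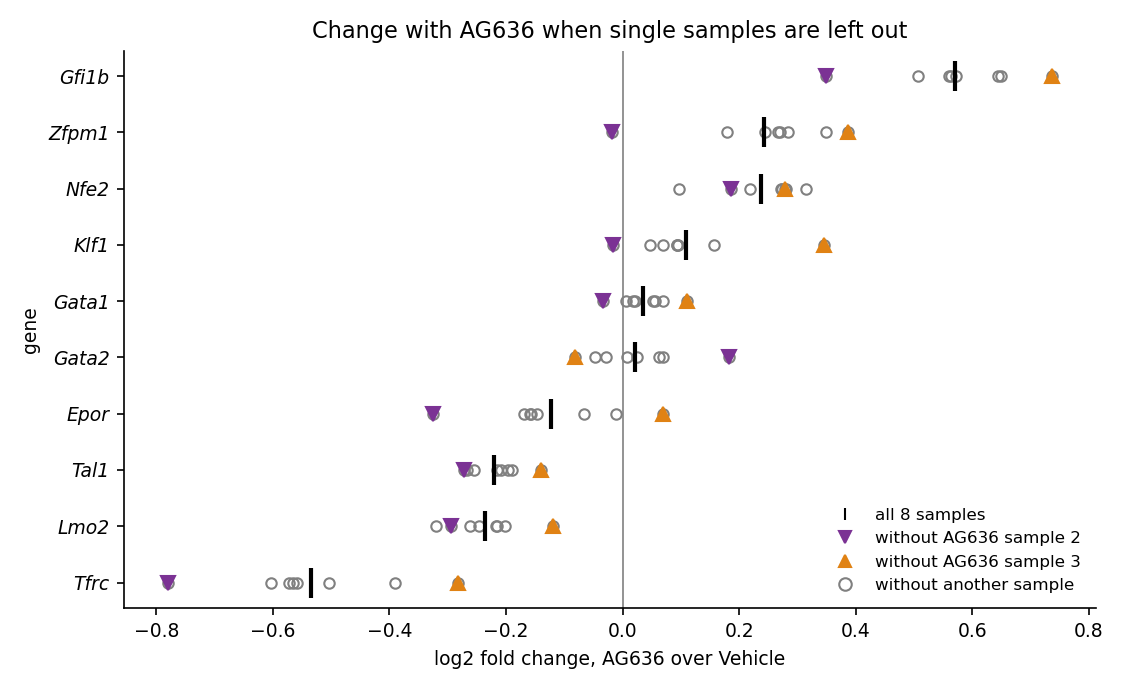
Log2 fold change of AG636 over Vehicle (x axis) for each gene (y axis) in all 8 samples (black bar) and with 1 sample left out (open circles), with the fits without AG636 sample 2 (downward triangles) and without AG636 sample 3 (upward triangles) marked. For Klf1 the values were −0.02 without AG636 sample 2 and 0.34 without AG636 sample 3, and for Tfrc −0.78 and −0.28.

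Pairs of factors that share sites or partners were compared within each sample, where library scaling cancels. Gata1 and Gata2 are the pair of the GATA switch, but Gata2 is also active in mast cells. In bulk samples their ratio can therefore differ with the mix of cells, which was not tested. The log2 ratio of Gata1 to Gata2 was −0.71, −0.77, −0.90 and −0.45 in Vehicle samples 1 to 4 and −0.78, 0.00, −1.23 and −0.76 in AG636 samples 1 to 4. The AG636 values enclosed the Vehicle values, with transcripts of both genes equal in AG636 sample 2, and the difference of the means was 0.01 (two-sided exact permutation p = 0.971). The ratio of Tal1 to its paralog Lyl1 was 2.66, 2.36, 2.46 and 2.47 in Vehicle and 2.23, 2.25, 1.92 and 2.06 in AG636, lower in 4 of 4 AG636 samples than in any Vehicle sample. The difference was −0.37 log2 units (exact permutation p = 0.0286, the smallest that 70 relabelings can give, adjusted p = 0.0857 over 3 ratios). Groups did not overlap in 22.2% of all single tested genes either, and no such share was taken for ratios of other gene pairs. Beside the p-values of the other ratios, even this smallest p could not pass the correction. Neither the correction nor the lack of overlap therefore decides this ratio. Lyl1 itself was at 62.0 ± 7.68 CPM in Vehicle and 69.1 ± 8.999 CPM in AG636 (SD, n = 4), with a log2 change of 0.16 (adjusted p by limma = 0.412). The ratio of Gata1 to Spi1, a myeloid factor known to oppose Gata1, differed by −0.38 (2.66 ± 0.33 in Vehicle and 2.28 ± 0.39 in AG636, exact permutation p = 0.200, adjusted p = 0.300). Spi1 itself was at 35.9 ± 7.70 CPM in Vehicle and 47.6 ± 6.64 CPM in AG636 (SD, n = 4), with a log2 change of 0.42 (adjusted p by limma = 0.109). The ratio of Gata1 to Spi1 differed by −0.24 without Vehicle sample 4, −0.23 without AG636 sample 3 and −0.08 without both. No ratio is given for Gfi1b and Gfi1, because Gfi1 had 0 to 12 counts.

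The genes whose sample pattern was most like that of Gfi1b, by the root mean square difference of centered log2 CPM over 8 samples, were Flot2 (0.105), Senp7 (0.108) and Atp8a1 (0.110), against a median of 0.473 over 5251 genes. For Tfrc, the member with the next smallest p-value, they were BC017158 (0.209), Ubxn2b (0.214) and Net1 (0.224), against a median of 0.499. Among the members themselves the closest pairs were Gata1 with Tal1 (0.146) and Tal1 with Lmo2 (0.175), and the most distant was Gata2 with Tfrc (0.700).

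Genes that work with these regulators were mostly not called either, as was true of most tested genes (5.47% of all called higher and 8.49% lower). Of 18 tested partners of the GATA and Tal1 complex (Ldb1, E proteins, corepressors and chromatin enzymes) 0 were called by limma in either direction, with a median log2 change of −0.10, and of 5 partners and relatives of Nfe2 also 0, with a median of −0.15. Unadjusted p-values were under 0.05 for 5 of the 18 (27.8%) and 2 of the 5 (40%), against 30.7% of all tested genes. edgeR called 0 in both lists (6.36% of all tested genes higher and 8.41% lower). DESeq2 called 1 lower among the 18 (8.75% of all tested genes higher and 9.25% lower). Of 17 tested genes of Epo receptor signaling 0 were called, with a median of 0.00, while 4 (23.5%) had an unadjusted p under 0.05, edgeR called 2 higher and DESeq2 called 3 higher. In this list Jak2, the kinase bound to Epor, had a log2 change of 0.41 (SE 0.13, adjusted p by limma = 0.0528). Of 17 tested genes of iron uptake and storage 1 was called, Pcbp1, an iron chaperone and RNA-binding protein, which fell, with means of 583 ± 28.0 CPM in Vehicle and 427 ± 53.3 CPM in AG636 (SD, n = 4) and a log2 change of −0.46 (SE 0.10, adjusted p by limma = 0.0136). The groups did not overlap for Pcbp1, as for 22.2% of all tested genes, and 5 of the 17 (29.4%) had an unadjusted p under 0.05.

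Of 12 tested lineage transcription factors 3 were called higher, beside 5.47% of all tested genes, and 0 lower. Their median log2 change was 0.23, and 6 of the 12 (50%) had an unadjusted p under 0.05 against 30.7% of all tested genes. edgeR called 3 higher (6.36% of all tested genes) and DESeq2 called 4 higher (8.75%). Sox6, which silences embryonic globin and aids red cell maturation, was measured at 38.5, 28.7, 36.7 and 48.7 CPM in Vehicle and at 111, 135, 46.6 and 72.1 CPM in AG636, a log2 change of 1.16 (SE 0.30, adjusted p by limma = 0.0296). Klf3, a repressor of the Klf family that Klf1 is known to activate, rose from 89.2 ± 19.5 to 149 ± 38.5 CPM (log2 change 0.73, SE 0.19, adjusted p by limma = 0.0311), and Foxo3, which serves oxidative defense in red cell precursors, rose from 130.0 ± 3.32 to 177 ± 33.0 CPM (0.43, SE 0.12, adjusted p by limma = 0.0378). For Foxo3 the groups did not overlap, while AG636 sample 3 was within the Vehicle range for Sox6 and Klf3. These calls were lost in 6, 7 and 8 of 22 alternatives for Sox6, Klf3 and Foxo3, with adjusted p-values up to 0.0994. Each of them was lost without any of Vehicle samples 1, 2 and 3 or AG636 sample 2, Sox6 and Klf3 also without AG636 sample 1, Klf3 and Foxo3 without AG636 sample 4, and Foxo3 without Vehicle sample 4, at log2 changes of 0.94 to 1.17 for Sox6, 0.58 to 0.77 for Klf3 and 0.32 to 0.44 for Foxo3.

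Of 24 tested erythroid effector genes 2 were called higher, beside 5.47% of all tested genes, and 0 lower, and 5 of the 24 (20.8%) had an unadjusted p under 0.05 against 30.7% of all tested genes. There were 21 fold changes above 0, with a median of 0.31, against −0.01 for all tested genes. Hbb-bt, a beta-globin gene with a near-identical copy in Hbb-bs, rose from 25.6 ± 9.19 to 46.6 ± 9.32 CPM (SD, n = 4; log2 change 0.90, SE 0.22, adjusted p by limma = 0.0238), and its count is uncertain because reads can be split between the copies. Rhag, the Rh-associated glycoprotein of the red cell membrane, rose from 114 ± 9.49 to 171 ± 38.1 CPM (0.56, SE 0.15, adjusted p by limma = 0.0346). The call of Hbb-bt was lost without Vehicle sample 2, 3 or 4 or without AG636 samples 2 and 3 (adjusted p up to 0.0745) and that of Rhag without any 1 of the Vehicle samples or AG636 sample 1 or 2 (adjusted p up to 0.1004). Slc4a1 had a log2 change of 1.58 (SE 0.48, adjusted p by limma = 0.0501). The number called depended on AG636 sample 3: without it 10 of the 24 were called higher, against 6.96% of tested genes, with a median of 0.50, those with the smallest p-values being Slc4a1 (2.04, adjusted p by limma = 0.000787), Rhag (0.71), Kel (0.75) and Aqp1 (1.88). AG636 sample 3 had the lowest mean of the AG636 samples for this list (−0.32 log2 units from the mean of all samples). It was singled out after its values were seen, so leaving it out was bound to raise the list. Without AG636 sample 2, which had the highest mean (0.65), Rhag was at 0.45 (adjusted p by limma = 0.0690). With all samples edgeR called 4 higher (beside 6.36% of all tested genes) and DESeq2 5 (8.75%), and over all alternatives the count ranged from 0 to 10.

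Markers of other cells were read beside these results. Of all tested genes, limma called 5.47% higher and 8.49% lower, and 30.7% had an unadjusted p under 0.05. The shares called higher were 6.36% by edgeR and 8.75% by DESeq2. The 11 mast cell and basophil genes summed to 2458 to 2980 CPM in Vehicle and 1759 to 4282 in AG636, and of 7 tested 0 were called by limma and 1 higher by edgeR and by DESeq2 (1 with an unadjusted p under 0.05). The 18 megakaryocyte genes summed to 295 to 334 in Vehicle and 286 to 480 in AG636, 4 of them were at 0 in all samples, and of 8 tested 0 were called by limma and 1 higher by edgeR and by DESeq2 (1 with an unadjusted p under 0.05). The 13 mature myeloid genes summed to 47.5 to 106 in Vehicle and 20.2 to 233 in AG636, with 0 of 7 tested called by limma, edgeR and DESeq2 (1 with an unadjusted p under 0.05). The 8 B cell genes summed to 6.39 to 13.8 in Vehicle and 12.1 to 25.3 in AG636, and 1 of 5 tested was called, Cd79a, at 2 to 7 counts in Vehicle and 10 to 22 in AG636 (log2 change 1.83, adjusted p by limma = 0.0266, lost without Vehicle sample 1, 2 or 3, without AG636 samples 2 and 3 and with no filter on low counts, with adjusted p up to 0.0921). Cd79a was under the minimum count of 10 in all Vehicle samples. It passed the filter only through AG636, which favors a higher call, so this call is no evidence of a rise in B cell genes. The 10 T and NK cell genes summed to 7.22 to 14.7 and 11.9 to 25.8, with 0 of 2 tested called by the 3 tools (0 with an unadjusted p under 0.05), and the 8 AML progenitor genes to 176 to 234 and 216 to 398, with 0 of 5 tested called (1 with an unadjusted p under 0.05). The part of these cells in the values of the 10 genes was not tested.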

How the data were processed

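RNA of 8 samples was measured with a QuantSeq 3′ mRNA kit. The deposited table holds unnormalized counts of reads for each gene, for which the authors removed low-quality reads, trimmed primer-derived bases and poly-A with cutadapt, mapped to mm10 (GRCm38) with HISAT2 and counted with Subread, in versions that the labels give as 1.9.1, 2.0.4 and 1.5.0-p3; the methods of the study give other versions of cutadapt and Subread and none of HISAT2. Treatment of strand and of reads mapping to several places is not given in the sources used here, so genes with near-identical copies are uncertain. Symbols came from a name table, which left 115 of 54838 genes without one.

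Samples were grouped by title. No pair of replicates agreed within sampling noise (chi-square per degree of freedom 3.69 to 22.6). Genes were kept by filterByExpr (minimum count 10), scaled by TMM factors and compared by limma-voom, in R 4.3.3 with limma 3.58.1 and edgeR 4.0.16, with group as the only term, two-sided, with Benjamini-Hochberg adjustment over 10911 genes and a threshold of 0.05. limma is the tool that the methods of the study name. The fit was tested on simulated data.

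The 10 genes and all lists were chosen with earlier results of these data known. Named are the members, up to 4 called genes per list with the smallest p-values, the ratio partners and checks. Jak2, Slc4a1, Aqp1, Hemgn, Hbb-bs, Kel, Cma1, Hdc, Itga2b, Car1, Ms4a2, Fcer1a, Mcpt8 and the myeloid markers were named after their values were seen. Log2 ratios and centered values used a prior count of 2, and likeness was read among genes of average log2 CPM 5 or more. Alternatives were DESeq2 (1.42.0), the quasi-likelihood test of edgeR, limma-trend, sample weights, other scaling factors and filters, mitochondrial genes and Gm42418 left out, a block on replicate number, an adjusted p under 0.01, a prior count of 0.5 and single samples left out. Leaving out Vehicle sample 4 with AG636 sample 3, or AG636 samples 2 and 3, was added after the data were seen.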

Additional observations from a re-analysis of the deposited data

Results flagged for a closer look

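Single samples were compared with the other samples of their group for the 10 genes and 3 ratios, 26 combinations in all, by the gap to the nearest sample relative to the range (Dixon's ratio, 95% critical value 0.829 for 4 samples). Chance gives about 1.30 of 26, and 3 were past the critical value, all in Vehicle sample 4. Klf1 was at 183 CPM there, against 167 to 168 CPM in the other Vehicle samples. Epor was at 95.2 CPM, against 71.5 to 74.9 CPM. Tfrc was at 137 CPM, against 91.6 to 98.9 CPM.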

How the results depend on the processing

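The count of members called higher, 0 by limma-voom, was 1 under DESeq2, 1 under the replicate block and 0 to 2 when single samples were left out, and the count called lower was 0 to 1 when single samples were left out. In the fits added after the data were seen, 2 members were called higher without Vehicle sample 4 and AG636 sample 3 (Gfi1b and Klf1) and 1 without AG636 samples 2 and 3 (Gfi1b). The log2 change of Gata2 was −0.0084 with sample quality weights, −0.048 without Vehicle sample 4, −0.029 without AG636 sample 4 and −0.14 without Vehicle sample 4 and AG636 sample 3, in place of 0.02. When single samples were left out it ranged from −0.082 (AG636 sample 3) to 0.18 (AG636 sample 2). That of Gata1 ranged from −0.034 to 0.11, of Klf1 from −0.016 to 0.34, of Zfpm1 from −0.018 to 0.39 and of Epor from −0.33 to 0.068, in each case with AG636 sample 2 left out at the low end and AG636 sample 3 at the high end. That of Epor was 0.19 without Vehicle sample 4 and AG636 sample 3. The log2 ratio of Gata1 to Gata2 ranged from −0.22 to 0.19 when single samples were left out and was −0.064 without AG636 samples 2 and 3. The cause of these changes was not tested. Samples with the same replicate number came from no stated common source, and the correlations of their deviations from the group means were −0.14, 0.01, 0.20 and 0.14, so the numbers were not taken to pair the samples. With the replicate number as a block the log2 change of Gfi1b was 0.58 (adjusted p by limma = 0.0326, where 5.65% of tested genes were higher), Hbb-bt was not called (0.87, adjusted p by limma = 0.0532), 1446 genes were called in place of 1523, and the ratio of Tal1 to Lyl1 differed by −0.37 (exact sign-flip p = 0.125, the smallest that 4 pairs can give). Over all alternatives 140 to 955 genes were called higher and 295 to 1051 lower, against 597 and 926, with totals of 435 at an adjusted p under 0.01, 688, 798, 918 and 1010 without Vehicle samples 3, 1, 2 and 4, and 1964 under DESeq2, against 1523. The lower genes made up 60.8% of calls with TMM factors and 38.3% with library size alone. At 4 samples per group the intervals of the members spanned 0.45 to 1.12 log2 units.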
